A study of Mus musculus with 15 samples.

Results

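The dystrophin and utrophin glycoprotein complex was followed through its 8 genes Dmd, Utrn, Dag1, Sgca, Sgcb, Sgcd, Dtna and Sspn in regenerating mouse Tibialis Anterior (TA) muscle. The members were taken by gene name, each name belonged to 1 identifier, and the 8 were drawn from 56748 gene identifiers in the tables. Expression was measured by RNA-sequencing in 15 libraries from male C57BL/6 mice that entered the study at 8 weeks of age. Mice of the injured groups received 50 µL of cardiotoxin (CTX, a snake venom toxin that lyses muscle fibers) at 0.1 mg/mL into the TA of 1 hind limb. The study names Meloxicam as a part of the injected solution, so it is described for the injured groups only. Muscle was studied 4 days after CTX in the Proliferation Stage (n = 4 libraries), 7 days after in the Differentiation Stage (n = 4), 14 days after in the Maturation Stage (n = 4), and in muscle labelled as non-CTX injected, here Uninjected (n = 3). The study uses the name Uninjected for mice that received no CTX, and the labels of these 3 libraries say only that the muscle was not injected, while injured mice also had an untouched opposite limb. Heavy water was given to every group for a labelling period, controls included. The study names 5 mice per group, and the labels give no source beyond a subject number, so that p-values measure the spread between these libraries. RNA came from single muscle fibers with their attached cells, and depletion of CD45+ leukocytes is described for the protein and DNA aliquots of the study and is not stated for the RNA.

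The complex joins the cytoskeleton of the muscle fiber to the basement membrane around it. Dystrophin (Dmd) binds actin inside the fiber and the transmembrane dystroglycan core (Dag1) at the membrane, and dystroglycan binds laminin outside. The sarcoglycans (Sgca, Sgcb, Sgcd) and sarcospan (Sspn) form a subcomplex that holds dystroglycan in place, and dystrobrevin (Dtna) carries syntrophins on the inner side. Utrophin (Utrn) is the paralog of dystrophin, is concentrated at neuromuscular junctions of adult fibers, and is known to spread along the membrane in regenerating and in dystrophin-deficient muscle. Loss of dystrophin, of a sarcoglycan or of the sugars on dystroglycan causes muscular dystrophy in humans.

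Promoter windows are shown for the pair of members that passed the test at the Differentiation Stage, Dmd and Sgca, and for Utrn, which did not, because these 3 carry the comparisons below. Each window is the RefSeq sequence of build GRCm38.p6, 250 bases before to 50 bases after an annotated start, written 5′ to 3′ on the strand of the gene. Capitals mark the E-box CANNTG, the core bound by myogenic bHLH factors such as MyoD, and the CArG box bound by serum response factor, each searched on both strands together with the N-box TTCCGG, known from genes expressed at neuromuscular synapses.
Dmd, chrX:82948620-82948919, + strand: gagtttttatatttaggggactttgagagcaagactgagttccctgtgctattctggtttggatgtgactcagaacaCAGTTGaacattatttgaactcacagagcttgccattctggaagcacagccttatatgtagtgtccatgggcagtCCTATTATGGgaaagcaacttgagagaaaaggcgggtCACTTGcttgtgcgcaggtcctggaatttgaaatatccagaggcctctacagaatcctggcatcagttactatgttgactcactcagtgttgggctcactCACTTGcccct
Sgca, chr11:94976278-94976577, - strand: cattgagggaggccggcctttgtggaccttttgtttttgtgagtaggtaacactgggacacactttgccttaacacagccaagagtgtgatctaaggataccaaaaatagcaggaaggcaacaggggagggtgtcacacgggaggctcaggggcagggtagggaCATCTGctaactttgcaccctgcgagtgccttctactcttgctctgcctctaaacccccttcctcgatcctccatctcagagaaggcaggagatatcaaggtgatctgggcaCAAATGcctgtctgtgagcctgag
Utrn, chr10:12861686-12861985, - strand: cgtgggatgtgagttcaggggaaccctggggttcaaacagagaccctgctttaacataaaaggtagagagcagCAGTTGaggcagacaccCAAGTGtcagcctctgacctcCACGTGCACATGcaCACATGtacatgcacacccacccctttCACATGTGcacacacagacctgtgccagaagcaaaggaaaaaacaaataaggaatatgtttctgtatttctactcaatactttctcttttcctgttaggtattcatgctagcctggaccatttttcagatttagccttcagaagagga
Counting the start base as 0, the Dmd window held 3 E-boxes and 1 CArG box, CCTATTATGG, from -98 to -89. The Sgca window held 2 E-boxes and the Utrn window 7, of which some overlap each other in the run of alternating purines and pyrimidines. The N-box was found in none of the windows of the 7 members with an entry. Of all 32851 RefSeq promoter windows of this length, 72.3% held an E-box, 14.9% an N-box and 1.63% a CArG box, so an E-box is common to most genes. The start sites of the Dmd and Sgca windows shown are the 5′ ends of these genes in GENCODE M21. The Utrn window belongs to a start 7630 bases inside the gene, which GENCODE begins at 12869365 on chromosome 10. The only Sgcd window, not shown, belongs to a start 609644 bases inside its gene. The absence of the N-box therefore does not cover the GENCODE starts of Utrn and Sgcd. A second annotated Dmd start, 2099425 bases inside the gene, had a window with 0 E-boxes and 0 CArG boxes and is not shown. A match is a description of the letters and not of a bound site.

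The libraries held 1471339 to 7209330 fragments in genes, read back from the steps of the deposited values, with 5198418 or more in each Proliferation Stage library. The values are FPKM, fragments per kilobase of gene scaled for library size. Levels set side by side between genes also depend on the gene length used. The length that gave back whole fragments was that of all exons of a gene joined, such as 23801 bases for Dmd and 17108 for Utrn. The 8 adult fiber markers that define the labelled tissue, such as Acta1 and Ckm, were above 0 in every library. Their summed FPKM ran from 4878 to 57464 across the Proliferation libraries, 34334 to 77146 across the Differentiation libraries, 80010 to 99419 across the Maturation libraries and 60882 to 97116 across the Uninjected ones. The 9 macrophage and leukocyte markers had their highest values in the Proliferation Stage, with summed FPKM of 1256 to 3006, 79.1 to 1119, 19.6 to 60.9 and 4.90 to 17.3 in the same order. Proliferation replicate 1 had the lowest fiber sum of the 15 libraries, at 4878, and the highest leukocyte sum, at 3006. In such mixed RNA, fewer fibers and less RNA of a gene per fiber cannot be told apart.

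In Uninjected muscle the members spanned a wide range of FPKM. Sgca stood highest at 141 ± 17.3 (SD, n = 3), followed by Dag1 at 45.3 ± 4.42, Sgcb at 34.5 ± 3.03, Sspn at 18.6 ± 3.29, Dtna at 6.63 ± 1.13, Dmd at 4.75 ± 0.686, Utrn at 2.92 ± 0.930 and Sgcd at 1.65 ± 0.965. Only Utrn and Sgcd had overlapping ranges among neighbours in this order, although Utrn was higher in 3 of 3 libraries. Sgca and Dag1 had the highest means in every group, and only Utrn and Dmd exchanged places in the order, at the Proliferation and Differentiation Stage. In the Proliferation Stage, Sgca at 64.4 ± 44.0 FPKM (SD, n = 4) and Dag1 at 62.1 ± 10.6 overlapped, with Sgca higher in 2 of 4 libraries, and Utrn at 3.02 ± 0.798 overlapped with Dmd at 2.26 ± 1.36, with Utrn higher in 2 of 4 libraries. In the Maturation Stage the order was the same as in Uninjected muscle for all 8 members, and there too Utrn and Sgcd were the neighbours with overlapping ranges.

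**Figure D1:**
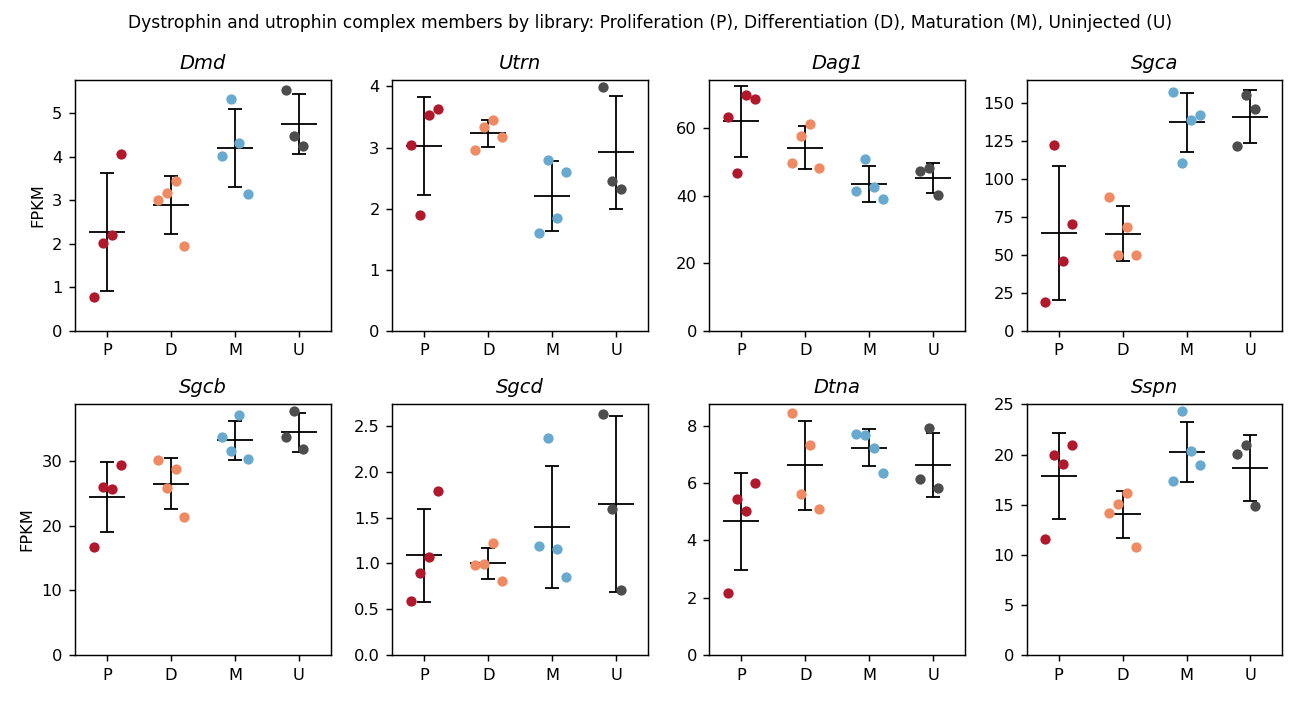
FPKM of the 8 members in each of the 15 libraries, with a panel per gene. The horizontal axis gives the group (P, Proliferation, D, Differentiation and M, Maturation Stage, n = 4 each, and U, Uninjected, n = 3), points are libraries, the long tick is the mean and the bars are ± SD. In FPKM as deposited, all 4 Differentiation Stage libraries lie under all 3 Uninjected libraries for Dmd, Sgca and Sgcb, and the Maturation Stage overlaps Uninjected muscle in every panel.

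Dystrophin mRNA had its lowest mean 4 days after injury and its mean came near that of Uninjected muscle by 14 days. Dmd (ENSMUSG00000045103) spans chrX:82948870-85206141 on the + strand, and its full-length protein is the longest of the complex. It was measured at 0.777, 2.02, 2.19 and 4.06 FPKM in Proliferation replicates 1 to 4, against 5.53, 4.46 and 4.25 FPKM in the Uninjected libraries. All 4 injured libraries were lower than all 3 Uninjected libraries, although replicate 4 fell short of the lowest of them by a small margin. The log2 fold change of the Proliferation Stage against Uninjected, on log2(FPKM + 0.5), was -1.06 (SE 0.39, 95% interval -1.94 to -0.18), which did not pass after adjustment over all genes tested (limma adjusted p = 0.0683), and the exact two-sided permutation test of mean FPKM gave p = 0.0571. Without Proliferation replicate 4 the change was -1.35 and passed (limma adjusted p = 0.0272). Without replicate 1, the library with the lowest fiber sum, the change was -0.73 and did not pass (limma adjusted p = 0.0770). Rescaling FPKM to TPM, the same summed FPKM in every library, gave -0.36 (adjusted p = 0.516).

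In the Differentiation Stage Dmd was at 3.00, 3.16, 3.45 and 1.94 FPKM, again below every Uninjected library. The mean of 2.89 ± 0.660 FPKM (SD, n = 4) stood against 4.75 ± 0.686 (SD, n = 3), a log2 fold change of -0.65 (SE 0.21, limma adjusted p = 0.0478). The exact permutation test gave p = 0.0286, the smallest that 35 splits of 4 and 3 libraries allow. This call lay close to the threshold of 0.05 and was lost when any 1 of the 7 libraries was left out, with adjusted p from 0.0523 without Differentiation replicate 1 to 0.140 without Uninjected replicate 1, while the log2 fold change stayed between -0.73 and -0.50. In all, the call was kept in 5 of 18 alternatives, with adjusted p of up to 0.698 under rescaling to TPM. In the Maturation Stage the values of 4.02, 5.33, 4.32 and 3.15 FPKM overlapped with Uninjected muscle, and the log2 fold change of -0.17 (95% interval -0.61 to 0.27, limma adjusted p = 0.749) did not pass. The study states, without showing the data, that dystrophin expression rose significantly late in regeneration, and it names no reference group for this. Here the Dmd mean of both later stages was below that of Uninjected muscle and above that of the Proliferation Stage.

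Utrophin mRNA showed no change that passed the test at any stage. Utrn (ENSMUSG00000019820, chr10:12382188-12869365, - strand) was at 3.05, 1.89, 3.53 and 3.63 FPKM after 4 days, at 2.95, 3.33, 3.46 and 3.18 after 7 days, at 1.59, 2.79, 1.84 and 2.59 after 14 days and at 3.99, 2.45 and 2.31 without CTX. The Uninjected libraries alone spanned much of the range of the injured ones, with replicate 1 the highest of all 15, and the small positive values below turned negative under quantile normalization. The log2 fold changes were 0.04 (95% interval -0.57 to 0.66) at the Proliferation Stage, 0.16 (-0.31 to 0.62) at the Differentiation Stage and -0.33 (-0.89 to 0.22) at the Maturation Stage, with limma adjusted p of 0.912, 0.597 and 0.600. These intervals leave room for a rise or a fall of Utrn.

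Dystroglycan mRNA had its highest mean in the Proliferation Stage. Dag1 (ENSMUSG00000039952, chr9:108204634-108263958, - strand) encodes a precursor that is cut into the outer laminin receptor and the transmembrane chain. It was at 63.3, 46.7, 69.7 and 68.6 FPKM after 4 days, at 49.6, 57.8, 61.4 and 48.1 after 7 days, at 41.5, 51.0, 42.4 and 38.9 after 14 days and at 47.4, 48.3 and 40.2 without CTX. At the Proliferation Stage 3 of 4 libraries exceeded all Uninjected libraries and replicate 2 lay within their range. The log2 fold changes of 0.44 (SE 0.25, limma adjusted p = 0.208) and 0.25 (SE 0.18, adjusted p = 0.322) against Uninjected muscle did not pass at the Proliferation and Differentiation Stage. Under rescaling to TPM the Dag1 values were 1.33 (adjusted p = 0.0223) and 0.83 (adjusted p = 0.0247), past the threshold at both stages, beside medians of all genes of 0.90 and 0.61.

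Alpha-sarcoglycan had the largest difference of the 8 members. Sgca (ENSMUSG00000001508, chr11:94962791-94976327, - strand) encodes a single-pass membrane protein made by striated muscle. In the Differentiation Stage it was at 87.8, 49.6, 68.6 and 50.0 FPKM, while the Uninjected libraries were at 122, 155 and 146, so that the groups did not overlap. The mean was 64.0 ± 18.1 FPKM (SD, n = 4) against 141 ± 17.3 (SD, n = 3), a log2 fold change of -1.17 (SE 0.25, limma adjusted p = 0.0113), with p = 0.0286 by the exact permutation test. Sgca was past the threshold in 16 of 18 alternative settings, among them those without each of the 7 libraries in turn, and it missed the threshold when all 15 libraries shared 1 fit (adjusted p = 0.0662).

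The Proliferation Stage libraries differed among themselves in Sgca, at 19.0, 123, 45.9 and 70.1 FPKM. Replicate 2 lay at the level of the lowest Uninjected library and the other 3 lay below all of them. The log2 fold change was -1.41 (SE 0.57, 95% interval -2.71 to -0.11), and it did not pass (limma adjusted p = 0.0896). Without replicate 2 it was -1.82 and passed (adjusted p = 0.0203), and without replicate 1 it was -0.93 and did not (adjusted p = 0.0974). Under rescaling to TPM it was -0.53 (adjusted p = 0.244). In the Maturation Stage Sgca was at 157, 111, 139 and 142 FPKM and overlapped with Uninjected muscle.

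Beta-sarcoglycan differed less than alpha-sarcoglycan. Sgcb (ENSMUSG00000029156, chr5:73632749-73647790, - strand) encodes the subunit that forms the stable core of the subcomplex with delta-sarcoglycan. It was at 16.8, 26.0, 25.7 and 29.5 FPKM in the Proliferation Stage and 30.3, 25.8, 28.8 and 21.3 in the Differentiation Stage, all below the 33.8, 37.8 and 31.9 FPKM of Uninjected muscle. The log2 fold changes of -0.51 (SE 0.25, limma adjusted p = 0.143) and -0.38 (SE 0.18, adjusted p = 0.147) did not pass, and the exact permutation test gave p = 0.0571 for each. They turned to 0.37 and 0.19 when FPKM were rescaled to TPM, a scaling that raised the median of all genes to 0.90 and 0.61. Delta-sarcoglycan, Sgcd (ENSMUSG00000020354, chr11:46896253-47988969, - strand), was the lowest member, at 0.588 to 1.79 FPKM after 4 days, 0.805 to 1.22 after 7 days, 0.856 to 2.37 after 14 days and 0.712 to 2.64 without CTX. These levels rest on 12 to 120 fragments per library, and the log2 fold changes of -0.38 (95% interval -1.24 to 0.47) and -0.42 (-1.15 to 0.31) at the Proliferation and Differentiation Stage had wide intervals and turned positive under rescaling to TPM.

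Dystrobrevin and sarcospan did not pass the test at any stage against Uninjected muscle. Dtna (ENSMUSG00000024302, chr18:23415135-23659715, + strand) was at 2.18, 5.44, 5.02 and 5.99 FPKM in the Proliferation Stage and at 6.12, 7.92 and 5.84 in Uninjected muscle, a log2 fold change of -0.53 (SE 0.32, limma adjusted p = 0.223). Its Differentiation values of 8.44, 5.61, 7.33 and 5.08 FPKM surrounded those of Uninjected muscle. Sspn (ENSMUSG00000030255, chr6:145931641-145965223, + strand), a membrane protein with 4 transmembrane passes, was at 11.5, 19.97, 19.1 and 20.9 FPKM after 4 days, 14.2, 15.1, 16.2 and 10.7 after 7 days and 20.1, 20.96 and 14.9 without CTX. Its log2 fold changes were -0.08 (95% interval -0.68 to 0.52) and -0.40 (-0.86 to 0.06), with limma adjusted p of 0.836 and 0.169. The negative signs of Dtna and Sspn at these stages turned positive under rescaling to TPM.

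Counted over the 8 members, the Differentiation Stage had 2 called genes against Uninjected muscle, Dmd and Sgca, both lower, while 12.5% of all 12983 genes tested were called lower and 29.5% were called in either direction. At the Proliferation Stage 0 of 8 members were called, with 2 at an unadjusted p under 0.05 and 0 by voom on recovered fragments, beside 29.2% of all genes called. At the Maturation Stage 0 of 8 were called, with 0 at an unadjusted p under 0.05 and 0 by voom, beside 0.0245% of all genes. Every member passed the filter on low values in each comparison. Groups that did not overlap numbered 2 lower at the Proliferation Stage (17.1% of all genes tested were lower without overlap) and 3 lower at the Differentiation Stage (17.4%). The median log2 fold change of the members was -0.45, -0.39 and -0.06 at the 3 stages, beside 0.05, 0.06 and 0.00 for all genes. In either direction, the share of members called did not exceed that of all genes at any stage. The 3 comparisons share the Uninjected libraries. These shares of all genes rest on counts that moved when 1 library was left out, from 1847 to 5413 genes called at the Proliferation Stage, against 3841 with all libraries, and from 2242 to 4655 at the Differentiation Stage, against 3835. The lowest counts came without Proliferation replicate 3 (1847) or Uninjected replicate 1 (2206), 2 (1875) or 3 (1885) at the former, and without Differentiation replicate 2 (2485) or Uninjected replicate 2 (2248) or 3 (2242) at the latter.

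**Figure D2:**
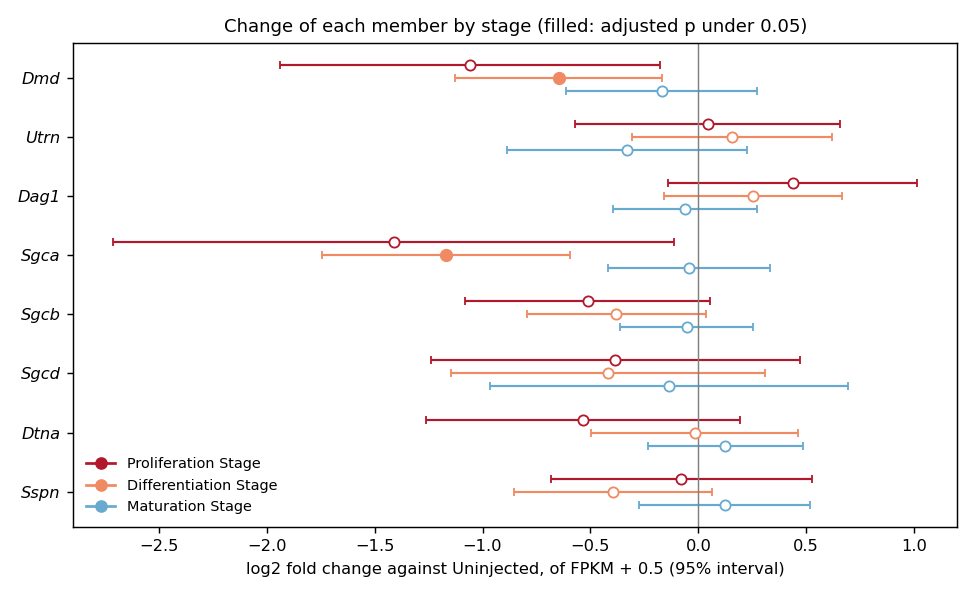
Log2 fold change of each member against Uninjected muscle at the 3 stages, on log2(FPKM + 0.5), with 95% intervals from limma. Filled points have an adjusted p under 0.05, which holds for Dmd (-0.65) and Sgca (-1.17) at the Differentiation Stage, and the Maturation Stage points lie between -0.33 and 0.13.

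Between stages, 3 of 8 members were called when the Maturation Stage was set against the Proliferation Stage, beside 33.8% of all 14576 genes tested (13.3% higher and 20.5% lower). Sgca was higher by a log2 difference of 1.37 (SE 0.42, limma adjusted p = 0.0222) and Dmd by 0.89 (SE 0.30, adjusted p = 0.0353), and Dag1 was lower, at -0.50 (SE 0.18, adjusted p = 0.0409). Leaving out 1 library ended the call of Sgca without Proliferation replicate 3 (adjusted p = 0.0618) or Maturation replicate 1 (0.0535). The call of Dmd was lost without Proliferation replicate 1 (0.108) or 3 (0.0665) or Maturation replicate 1 (0.0624), 2 (0.0904) or 3 (0.0689). The call of Dag1 was lost without Proliferation replicate 1 (0.0707), 3 (0.118) or 4 (0.0926), Maturation replicate 1 (0.0864), 3 (0.0806) or 4 (0.102), or Uninjected replicate 2 (0.0501). Under rescaling to TPM, Sgca (0.0759) and Dmd (0.561) did not pass. Dmd also did not pass when rescaled without mitochondrially encoded genes (log2 difference 0.35, limma adjusted p = 0.345). Over 26 alternatives the call was kept in 22 for Sgca, 16 for Dmd and 15 for Dag1. In a fit of the libraries of these 2 stages alone none of the 3 passed, with adjusted p of 0.0642 for Sgca, 0.0817 for Dmd and 0.0967 for Dag1. With no filter on low values Dmd (0.0634) and Dag1 (0.0583) did not pass, nor did Dag1 by voom (0.0856). In all of these fits the directions stayed the same. Sgcb and Dtna did not pass here, at limma adjusted p of 0.0652 and 0.0516, although all 4 Maturation Stage libraries exceeded all 4 Proliferation Stage libraries for both (11.4% of all genes tested did so). The Maturation Stage against the Differentiation Stage gave 0 of 8 called members, with 3 at an unadjusted p under 0.05 and 0 by voom, beside 14.2% of all genes, and the Differentiation against the Proliferation Stage gave 0 of 8, with 0 at an unadjusted p under 0.05 and 0 by voom, beside 3.06%. With 1 library left out, the counts of all genes called ranged from 2819 (without Proliferation replicate 3) to 6199 in the first, from 718 (without Differentiation replicate 4) to 3186 (without Proliferation replicate 1) in the second and from 170 (without Proliferation replicate 3) to 592 in the last of these comparisons.

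The plain FPKM ratio of utrophin to dystrophin within a library is unaffected by any scaling that applies 1 factor to the whole library. The log2 ratios that were tested had 0.5 added to each FPKM first, so they do depend on library scale. Proliferation replicate 1, with an FPKM ratio of 3.92, entered the test with a log2 ratio of 1.47. The Utrn/Dmd ratio of FPKM was 3.92, 0.933, 1.61 and 0.893 after 4 days, 0.984, 1.06, 1.00 and 1.64 after 7 days, 0.396, 0.525, 0.426 and 0.823 after 14 days and 0.722, 0.550 and 0.545 without CTX. Each of the 8 libraries of the 2 earlier stages had a higher ratio than each of the 7 Maturation Stage and Uninjected libraries. Utrn was below Dmd in all 7 of the latter. The macrophage and leukocyte sums were also higher in the 8 libraries of the earlier stages, at 79.1 to 3006 FPKM against 4.90 to 60.9. The part of the cell mixture in the ratio was not tested. The difference in mean log2 ratio against Uninjected muscle was 0.80 at the Differentiation Stage, with p = 0.0286 by the exact two-sided permutation test, the smallest its 35 splits allow, and 0.0686 after adjustment over the 12 ratio tests. It was 1.10 at the Proliferation Stage (exact permutation p = 0.0857, adjusted 0.171), where replicate 1 was far above the rest, and -0.16 at the Maturation Stage (p = 0.543, exact permutation). The Maturation Stage ratio was lower than in the Proliferation Stage by a log2 difference of -1.26 and in the Differentiation Stage by -0.97, each with exact permutation p = 0.0286 and adjusted p = 0.0686. None of the 12 ratio tests passed 0.05 after adjustment.

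Within the sarcoglycans, the proportion of beta to alpha subunit mRNA was compared in the same way. The Sgcb/Sgca ratio of FPKM was 0.882, 0.212, 0.560 and 0.420 after 4 days, 0.345, 0.521, 0.420 and 0.426 after 7 days, 0.215, 0.286, 0.268 and 0.213 after 14 days and 0.277, 0.243 and 0.218 without CTX. The Differentiation Stage libraries did not overlap with Uninjected or Maturation Stage muscle, while Proliferation replicate 2 was as low as they were. The difference in mean log2 ratio of the Differentiation Stage was 0.79 against Uninjected muscle and that of the Maturation Stage was -0.80 against the Differentiation Stage (exact permutation p = 0.0286, adjusted p = 0.0686 for each). At the Proliferation Stage the difference of 0.90 against Uninjected muscle had an exact permutation p of 0.171.

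**Figure D3:**
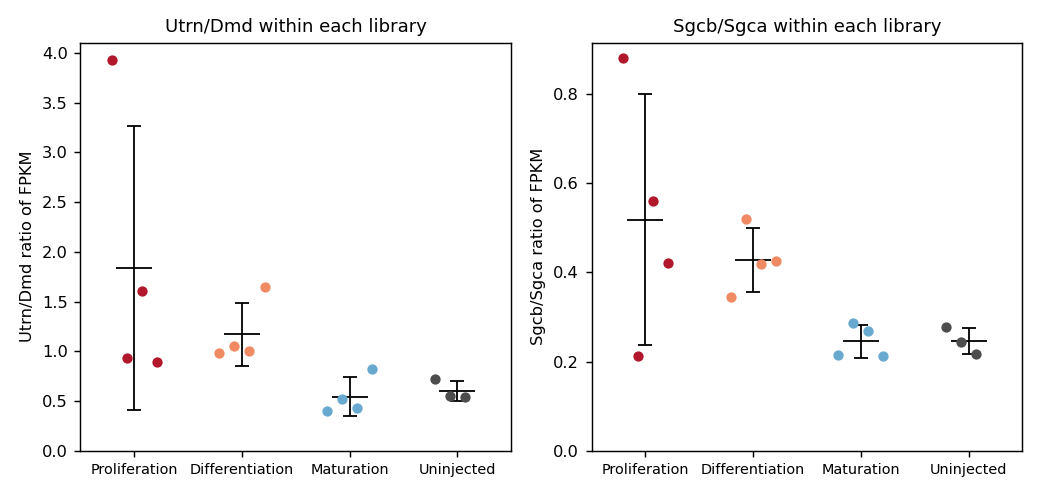
Ratio of FPKM of Utrn to Dmd (left) and of Sgcb to Sgca (right) in each library, by group on the horizontal axis. Points are libraries, the long tick is the mean and the bars are ± SD, with n = 4 per stage and n = 3 Uninjected. The Utrn/Dmd ratio is 0.893 or more in the 8 Proliferation and Differentiation Stage libraries and 0.823 or less in the other 7.

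Dmd and Sgca were set beside the summed adult fiber markers of each library. Proliferation replicate 1, with a fiber sum of 4878 FPKM, had the lowest Dmd (0.777 FPKM) and Sgca (19.0 FPKM) of all 15 libraries. Proliferation replicate 2, with the highest fiber sum of its stage at 57464, had a Sgca level of 123 FPKM, next to 122 FPKM in Uninjected replicate 1, whose fiber sum was 60882. Dmd did not follow the same order, since replicate 2 was at 2.02 FPKM and Uninjected replicate 1 at 5.53 FPKM. In the Differentiation Stage replicate 1 had a fiber sum of 77146, above that of 2 of 3 Uninjected libraries, and its Sgca of 87.8 FPKM and Dmd of 3.00 FPKM were below every Uninjected library. The macrophage and leukocyte sum of that library was 79.1 FPKM and its fibro-adipogenic progenitor sum 115, each the lowest of its stage. Its endothelial sum of 132 was the highest of the stage. The fibro-adipogenic progenitor sums of the stage ran from 115 to 1592, against 34.7 to 93.5 in Uninjected muscle. Sums of new muscle fiber markers, such as Myh3 and Myog, were 629 to 1008 after 4 days and 3.13 to 6.01 without CTX. After 7 days they were 62.8 to 622, with 62.8 in Differentiation replicate 1. Satellite cell sums were 18.4 to 48.3 after 4 days, 11.8 to 23.4 after 7 days and 9.01 to 13.6 without CTX. Endothelial sums were 32.9 to 43.7 after 4 days, 86.9 to 132 after 7 days and 52.9 to 89.0 without CTX, and smooth muscle and pericyte sums were 188 to 351, 164 to 267 and 122 to 174 in the same order. The part of these marker shifts in the member results was not tested.

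**Figure D4:**
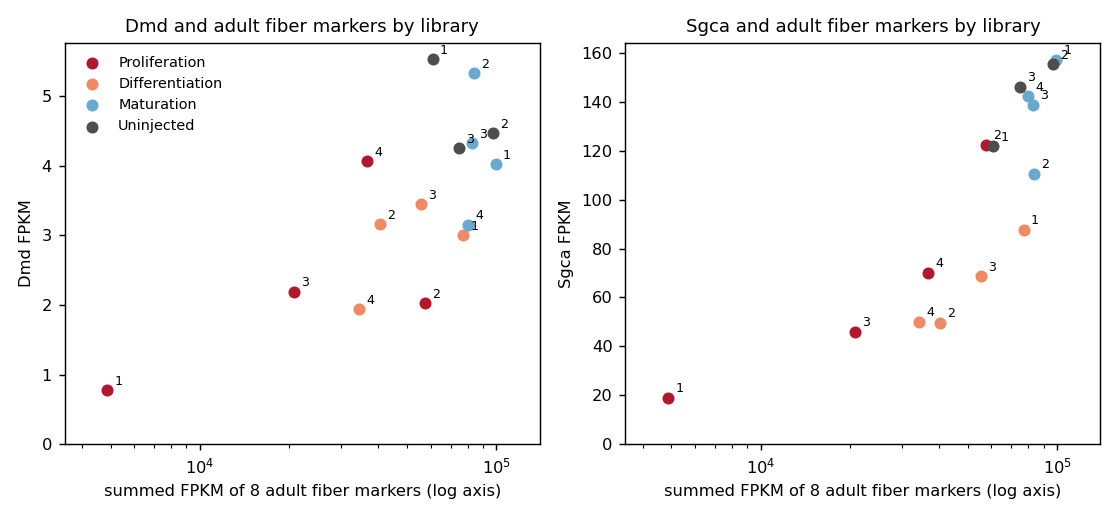
Dmd FPKM (left) and Sgca FPKM (right) against the summed FPKM of 8 adult fiber markers on a log axis, a point per library with its replicate number and coloured by group. Proliferation replicate 1 is lowest on both axes at 4878 summed marker FPKM, and Differentiation replicate 1 at 77146 lies under the Uninjected libraries in both panels.

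Over the 15 libraries, the genes whose log2(FPKM + 0.5) was most like that of Dmd by Pearson's r, among 14576 genes, were Spag9 (r = 0.960), Kif13a (0.957), Map4 (0.953), Svil (0.951) and Neb (0.946), the last encoding nebulin of the thin filament. Of the members, Sgcb was the most like Dmd (r = 0.913), then Dtna (0.822), Sgca (0.775), Sgcd (0.732) and Sspn (0.667), while Utrn (-0.09) and Dag1 (-0.36) were not. The genes most like Utrn were Tmem131 (0.902), Peak1 (0.891), Myh10 (0.883), Tnfaip6 (0.849) and Slc38a9 (0.848), and among the members Dag1 came first (0.677). These values are descriptions over points that share group and marker content.

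Of the other genes of the complex, 7 of 9 were tested. Sgcz was listed at 0 in every library and Dtnb stayed under the filter. At the Proliferation Stage 3 were higher and 1 was lower, and at the Differentiation Stage 1 was higher and 1 lower, with 0 called at the Maturation Stage. Of all genes tested, 20.1% and 9.05% were called higher and lower at the Proliferation Stage and 17% and 12.5% at the Differentiation Stage. The median log2 fold change of the 7 genes was 0.59, 0.53 and 0.22 at the 3 stages. Nos1, the neuronal nitric oxide synthase that the complex holds at the membrane, was lower at 2.53 ± 0.831 FPKM in the Differentiation Stage (SD, n = 4) against 14.5 ± 5.24 (SD, n = 3), a log2 fold change of -2.29 (limma adjusted p = 0.00159) that passed in all 18 alternatives. Nos1 was also lower at the Proliferation Stage, by -2.05 (adjusted p = 0.0299), and this call was lost without Proliferation replicate 3 (0.0836) or Uninjected replicate 1 (0.0997), 2 (0.0610) or 3 (0.0827), with no filter on low values (0.0632) and under rescaling to TPM (log2 fold change -1.35, adjusted p = 0.0520). Sntb1, a syntrophin, was higher at the Proliferation Stage by 1.59 (adjusted p = 0.0136, and 0.0527 without Uninjected replicate 1). Cav3, the muscle caveolin, was higher by 1.04 (0.0243), which was lost without Proliferation replicate 3 (0.0807) or Uninjected replicate 1 (0.0667), 2 (0.0567) or 3 (0.0966). Sntb2 was higher at the Proliferation Stage by 0.88 (0.0365) and at the Differentiation Stage by 1.13 (0.0213), with adjusted p of up to 0.117 and 0.0891 over the alternatives, and both calls were lost without any 1 of the Uninjected libraries. Epsilon-sarcoglycan, Sgce, was at 1.07 ± 0.236 FPKM in the Proliferation Stage and 0.547 ± 0.207 in Uninjected muscle (log2 fold change 0.59, limma adjusted p = 0.0943).

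The genes that build the laminin-binding sugar of dystroglycan were called in both directions, with 4 of 13 called at each of the Proliferation and Differentiation Stage beside 29.2% and 29.5% of all genes. Of the 13 tested, 2 were higher and 2 lower at the Proliferation Stage, and 1 was higher and 3 lower at the Differentiation Stage, with 0 at the Maturation Stage, and the medians were -0.02, 0.08 and -0.05. B3galnt2 (log2 fold change -1.20) was lower at the Proliferation Stage, and Pomgnt2 (-0.76) and Rxylt1 (-0.89) were lower at the Differentiation Stage. Gmppb, which makes GDP-mannose, was higher at both (1.05 and 1.00), and Dpm3, an anchor of dolichol-phosphate-mannose synthase, at the Proliferation Stage (1.80, limma adjusted p = 0.0130, past the threshold in all 18 alternatives). Apart from that of Dpm3, each of these calls was lost in 5 to 12 of 18 alternatives, each time including at least 2 of the 3 fits without an Uninjected library.

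Of the laminins and other ligands outside the fiber, called genes were 2 of 9 higher at the Proliferation Stage and 6 of 9 at the Differentiation Stage, with 0 lower at either stage and 0 called at the Maturation Stage, beside 20.1% and 17% of all genes called higher at the first 2 stages. Their median log2 fold change was 0.69, 1.28 and 0.34 at the 3 stages. Agrn, the proteoglycan agrin that binds dystroglycan and clusters acetylcholine receptors, was at 6.71 ± 0.950 FPKM in the Differentiation Stage against 2.27 ± 0.310 (log2 fold change 1.38, limma adjusted p = 0.00168). The laminin chains Lamb1 (2.39, adjusted p = 0.00366) and Lamc1 (1.37, 0.00237) and the proteoglycan Bgn (3.19, 0.0159) were higher too, and Lamb1 (1.97) and Bgn (3.97) were already higher at the Proliferation Stage. Agrn, Lamc1 and Lamb1 passed in all 18 alternatives, while the Differentiation call of Bgn was lost without Uninjected replicate 2 or 3, with adjusted p of at most 0.0615 over the alternatives. Of 10 genes of integrin and other linkages, 2 were higher at each of the Proliferation and Differentiation Stage and 0 at the Maturation Stage, namely Itga7 (1.41 and 1.09) and Itgb1 (1.05 and 1.05), which form the other laminin receptor of the fiber, and this count of 2 of 10 was close to the shares of all genes called higher. The medians of these 10 genes were -0.08, 0.19 and -0.01. Itga7 had 32.3 ± 5.49 FPKM after 4 days, 25.7 ± 2.75 after 7 days and 11.8 ± 0.516 without CTX (limma adjusted p = 0.00250 and 0.00256) and passed in all 17 alternatives at each stage, while the Proliferation call of Itgb1 was lost in 8 of 18, each fit without an Uninjected library among them. Many of these ligand genes are also made by the fibro-adipogenic and endothelial cells whose marker sums differed between the groups, and the part of those cells was not tested.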

How the data were processed

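RNA-sequencing of polyadenylated RNA (paired ends) was read from the deposited tables of 15 libraries. The authors normalized gene expression to FPKM before deposit, with the build label mm10. Which aligner, counter and gene models were used is not given in the sources used here. Columns of the authors' fold changes and p-values in these tables were not used, and 0 columns of per-sample values were left unused. The tables hold 56748 identifiers, of which 52125 are in GENCODE M21 (GRCm38, the build of mm10), the source of gene positions.

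Multiplied by gene length, 90.4% to 95.0% of the FPKM values under 50 fragments were whole fragments within 0.01. The implied library denominators followed median-of-ratios size factors of these fragments within 1.7%, so the deposited FPKM were already scaled for composition, and fragments in genes were 0.523 to 1.16 of the denominators. Fragments in genes were up to 4.90-fold apart between libraries, so that low genes are less precise in the shallow ones.

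Each stage was compared with Uninjected muscle in limma 3.58.1 (R 4.3.3, statmod 1.5.0, Python 3.11.15), using lmFit and a trended, robust eBayes on log2(FPKM + 0.5). Genes had to reach 0.5 FPKM in 3 or more of the 7 libraries. Stages were compared with each other in 1 fit of all 15 libraries. P-values were adjusted by Benjamini-Hochberg across every gene that passed, and under 0.05 is a call. The study's methods name an unpaired test of FPKM, which limma replaced because groups hold 3 or 4 libraries. Member means, and log2 ratios of FPKM + 0.5, were compared with exact two-sided permutation tests. The fit was also run on simulated data that gave every gene and group the same spread. That run cannot show how the fit behaves with the wider spread of the Proliferation Stage libraries.

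The members and gene lists were chosen with earlier results of these data known. By rule, all members were named, with up to 4 called genes per list and stage by size of change, any of the other complex genes, and the 5 genes most like Dmd and most like Utrn. Some genes that the lists count are not reported here by name. Alternatives changed the pseudocount, filter, scaling, spread model, libraries in the fit, the subject number as a block, and each library left out. Voom on recovered fragments was added after seeing the data.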

Additional observations from a re-analysis of the deposited data

Results flagged for a closer look

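The Utrn/Dmd ratio of FPKM in Differentiation replicate 4 was 1.64, apart from the 0.984 to 1.06 of the other 3 libraries of that stage, with a gap of 0.892 of the group's range. Of 30 groups of 4 libraries that were checked in this way, chance sets about 1 in 20 apart. That library had the lowest Dmd of its stage, at 1.94 FPKM from 111 fragments, and the lowest adult fiber sum of its stage, at 34334 FPKM. Their part in the ratio was not tested.

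The Maturation Stage differed from the Proliferation Stage past the threshold in 3 members, with log2 differences of 1.37 for Sgca (limma adjusted p = 0.0222), 0.89 for Dmd (0.0353) and -0.50 for Dag1 (0.0409), so that 2 rose and 1 fell between 4 and 14 days. Since both stages share the Uninjected libraries, these values are the difference of the effects of the 2 stages. The summed adult fiber markers were 4878 to 57464 FPKM at the earlier and 80010 to 99419 FPKM at the later stage, and the macrophage and leukocyte sums 1256 to 3006 and 19.6 to 60.9 FPKM, and their part in the differences was not tested.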

How the results depend on the processing

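No called gene named here turned in direction under any alternative run. Rescaling FPKM to TPM moved the median log2 fold change of all genes to 0.90 (Proliferation Stage) and 0.61 (Differentiation Stage) against Uninjected muscle, and leaving out mitochondrially encoded genes moved it to 0.50 and 0.29. All genes called higher and lower then numbered 5132 and 175, and 3107 and 358, in place of 2649 and 1192 at the Proliferation Stage, and 4162 and 552, and 2367 and 920, in place of 2209 and 1626 at the Differentiation Stage. Quantile normalization gave 1895 and 1840, and 1710 and 1962. For the Maturation against the Proliferation Stage these 3 scalings gave 427 and 7103, 577 and 5811, and 2650 and 2332, in place of 1935 and 2987, for the Maturation against the Differentiation Stage 167 and 1710, 224 and 1446, and 753 and 882, in place of 686 and 1390, and for the Differentiation against the Proliferation Stage the first 2 gave 35 and 164, and 67 and 226, in place of 165 and 281. Under rescaling to TPM the log2 fold changes of Sgcb, Sgcd, Dtna and Sspn turned to 0.37, 0.31, 0.29 and 0.81 at the Proliferation Stage and to 0.19, 0.0054, 0.54 and 0.17 at the Differentiation Stage. Without mitochondrially encoded genes, Sgcb (0.012) and Sspn (0.44) turned at the Proliferation Stage and Dtna (0.24) at the Differentiation Stage. Relative to the median of all genes each of these was below 0, from -0.61 to -0.05. Quantile normalization turned Utrn to -0.17 and -0.029 at these stages, and the mean log2 Sgcb/Sgca difference of the Maturation Stage against Uninjected muscle to 0.035.

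At the Proliferation Stage 2 members were called under rescaling to TPM (Dag1 and Sspn, both higher) and 2 in the fit of all 15 libraries (Dmd and Sgca, lower), in place of 0. At the Differentiation Stage Dag1 and Sgca were called under rescaling to TPM, 1 was called with no filter on low values, 1 without mitochondrially encoded genes, 1 with eBayes without trend and robust, and 0 in the fit of all 15 libraries, in place of Dmd and Sgca. For the Maturation against the Proliferation Stage 1 was called with no filter and 0 when only the libraries of the 2 stages were fitted, in place of 3, and for the Maturation against the Differentiation Stage 1 in place of 0. The cause was not tested.

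Same-numbered libraries did not deviate together (21 pairs, r from -0.479 to 0.0697, 0 over 0.1), so the subject number was not taken to pair libraries. Against Uninjected muscle, replicate 4 has no partner and drops out. With the replicate block, 1 member was called at the Proliferation Stage, 0 at the Differentiation Stage and 1 for the Maturation against the Proliferation Stage, Dmd (limma adjusted p = 0.0636) and Dag1 (0.0904) being lost. Utrn at the Proliferation Stage was -0.044 and Dtna at the Differentiation Stage 0.092. The call of Sgca at the Differentiation Stage was lost under the block (log2 fold change -1.06, limma adjusted p = 0.0782). Genes called of all genes were 1728 in place of 3835 at the Differentiation Stage, 0 in place of 3 at the Maturation Stage, 198 in place of 446 for the Differentiation against the Proliferation Stage and 1119 in place of 2076 for the Maturation against the Differentiation Stage. Paired differences in the log2 Utrn/Dmd ratio under the block were 0.66 (Differentiation Stage against Uninjected, exact permutation p = 0.25), -1.26 (Maturation against Proliferation Stage) and -0.97 (Maturation against Differentiation Stage, exact permutation p = 0.125 for each), and in Sgcb/Sgca 0.78, 0.053 (Maturation Stage against Uninjected) and -0.80. These paired tests cannot reach 0.05.

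With 1 library left out, called members ranged from 0 to 1 at the Proliferation Stage, were 1 at the Differentiation Stage, and ranged from 0 to 5 (Maturation against Proliferation Stage) and 0 to 2 (Maturation against Differentiation Stage). Utrn ranged from -0.081 to 0.26 and Sspn from -0.23 to 0.11 at the Proliferation Stage, and Dtna from -0.14 to 0.11 at the Differentiation Stage. The log2 Utrn/Dmd difference ranged from 0.66 to 0.91 (Differentiation Stage against Uninjected), -0.50 to 0.043 (Differentiation against Proliferation Stage), -1.46 to -0.92 (Maturation against Proliferation Stage) and -1.15 to -0.82 (Maturation against Differentiation Stage), and that of Sgcb/Sgca from 0.69 to 0.89, -0.48 to 0.20, -1.28 to -0.60 and, for the Maturation Stage against Uninjected, -0.093 to 0.079. The ratio tests against Uninjected muscle cannot go below 0.0667 or 0.1 with a library out. Counts of all genes called were with no filter 2517 in place of 3841 at the Proliferation Stage, 0 at the Maturation Stage and 1090 for the Maturation against the Differentiation Stage, by voom 139 in place of 3 and in the fit of 15 libraries 9 at the Maturation Stage, under rescaling to TPM 9 there and 7530 in place of 4922 for the Maturation against the Proliferation Stage, and for the Differentiation against the Proliferation Stage 262 with pseudocount 0.1 and 122 in the fit of both stages alone.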
